A study of Mus musculus with 18 samples.

Results

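The let-7 hairpins each give a pair of mature microRNAs (miRNAs). The 5p strand is the guide strand known as let-7, and the 3p strand is its passenger. The 10 3p strands described here were chosen by name, as the rows of mmu-let-7a-1-3p, mmu-let-7c-2-3p, mmu-let-7b-3p, mmu-let-7d-3p, mmu-let-7e-3p, mmu-let-7f-1-3p, mmu-let-7f-2-3p, mmu-let-7g-3p, mmu-let-7i-3p and mmu-miR-98-3p. They are 10 of 1907 mature miRNAs in the table, with 1 row each. No cut-off on a measured value was used, but the list was drawn up with earlier results of these data known. The RNA was from NIH/3T3, a line of mouse embryonic fibroblasts. Small RNAs were sequenced as input and as the fraction pulled down (IP) by an antibody that binds pseudouridine (Ψ), an isomer of uridine. Cells were wild type (WT), or carried a knockdown of Pus1, the gene of a Ψ synthase, for 3 days (KD3) or 6 days (KD6). Each of the 6 groups had 3 libraries, called A, B and C, and all came from the same line grown in the same medium. How the knockdown was made is not given in the sources used here, and a miRNA table cannot check it. No label says whether replicates were separate cultures, so p-values measure the spread between these libraries, which may be technical.

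A let-7 primary transcript is cut by Drosha and Dicer to a short duplex, and an Argonaute protein keeps mainly the 5p strand. The guide is known for holding back growth-promoting mRNAs in differentiated cells, and all let-7 guides share the same seed, the bases that pair with target mRNAs. The passenger is usually discarded and degraded, and is therefore much scarcer than the guide. A Ψ antibody is used to pull down strands it recognises. No mock IP is among the libraries, so reads carried along without recognition were not measured. The ratio of IP to input is a relative measure among the miRNAs of a library, not the fraction of molecules that carry Ψ.

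The mature sequences are shown because some strands that behaved differently, such as let-7f-2-3p and let-7a-1-3p, are close in sequence. All were taken from RefSeq (GRCm38.p6), written 5′ to 3′ with the seed, bases 2 to 8, in capitals, and all 10 matched the table by name and by 5′ position.
let-7a-1-3p: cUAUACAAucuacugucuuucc
let-7c-2-3p: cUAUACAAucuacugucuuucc
let-7b-3p: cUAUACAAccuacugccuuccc
let-7f-1-3p: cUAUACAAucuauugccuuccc
miR-98-3p: cUAUACAAcuuacuacuuuccu
let-7f-2-3p: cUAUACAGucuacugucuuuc
let-7d-3p: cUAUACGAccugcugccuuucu
let-7e-3p: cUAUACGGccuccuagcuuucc
let-7i-3p: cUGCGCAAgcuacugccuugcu
let-7g-3p: aCUGUACAggccacugccuugc
For comparison, the guide of the let-7i hairpin carries the seed that all let-7 guides share.
let-7i-5p: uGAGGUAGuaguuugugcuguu
The 10 strands hold 9 distinct sequences and 6 seeds, and 5 strands share UAUACAA. let-7a-1-3p and let-7c-2-3p are identical, so their reads cannot be told apart, their counts differed by at most 1.58%, and they are 1 measurement printed under both names, with its reads divided between the rows. A level, read ratio or arm share under 1 of these names covers the reads of that row alone. let-7f-2-3p is annotated with 21 nt and differs from let-7a-1-3p over those 21 bases by A8G alone, with positions counted from 1 at the 5′ end and the base of let-7a-1-3p given first. let-7b-3p differs from let-7a-1-3p by U9C, U16C and U20C, and let-7f-1-3p by C13U, U16C and U20C.

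The hairpins lie in 6 places of the genome (GRCm38, which mm10 also names). let-7a-1 (chr13:48538179-48538272), let-7f-1 (chr13:48537829-48537917) and let-7d (chr13:48536012-48536114) lie on the minus strand, in exons of the lincRNA 6720427I07Rik. let-7c-2 (chr15:85706603-85706697) and let-7b (chr15:85707319-85707403) lie on the plus strand, in exons of the non-coding transcript Lncppara. let-7f-2 (chrX:151912346-151912428) and mir-98 (chrX:151913214-151913321) lie on the plus strand, 785 nt apart, in an intron of Huwe1, which encodes a ubiquitin ligase. let-7e (chr17:17830352-17830444, plus) is in an intron of Spaca6, let-7g (chr9:106178840-106178927, plus) in an intron of Wdr82, and let-7i (chr10:122985640-122985724, minus) in an exon of the pseudogene transcript D630033A02Rik.

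Depth was 3989031 to 15099781 mapped reads in 17 libraries and 241109 in replicate A of the KD6 input, so the KD6 log2 IP/input ratios are also given without that library. Reads outside miRNA rows were 5.47% to 9.96% in inputs and 14.8% to 38.2% in IP libraries, and the part of that difference in the results was not tested. Fibroblast markers were abundant in all 9 inputs, with miR-21a-5p at 295361 to 481140 CPM (counts scaled to a common library size). The blood marker miR-142a-3p and the pluripotent marker miR-302b-3p were at 0 in all 9, miR-124-3p (neuron) reached 0.69 CPM, miR-200c-3p (epithelium) 1.33 CPM and miR-122-5p (hepatocyte) 84.6 CPM.

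Each of the 10 strands was the lesser arm of its hairpin in WT input, so the label of passenger holds for all of them in these cells. CPM here are over library sizes scaled by median-ratio factors, and since a read spans a whole miRNA no division by length was made. let-7d-3p led at 256 ± 23.0 CPM (SD, n = 3), followed by the shared sequence of let-7a-1-3p and let-7c-2-3p at 144.4 ± 15.6 with both rows summed (72.2 ± 8.01 in the let-7a-1-3p row), let-7e-3p at 49.8 ± 4.75 and let-7b-3p at 30.9 ± 2.49. Below them came let-7i-3p at 26.4 ± 3.28, let-7f-1-3p at 21.6 ± 0.851, let-7f-2-3p at 19.6 ± 3.82, miR-98-3p at 3.22 ± 1.27 and let-7g-3p at 0.885 ± 0.474 CPM. In that order the ranges of let-7b-3p and let-7i-3p overlapped, as did those of let-7f-1-3p and let-7f-2-3p, while the other neighbours with different sequences did not overlap. let-7d-3p made up 46.3% ± 2.96 of all reads of the 10 strands in WT input (SD, n = 3), a share that was 80.1% ± 3.34 in WT IP. The 10 strands summed to 553 ± 19.6 CPM before the IP in WT and to 2262 ± 113 after it.

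The IP set the strands apart in WT cells. The values were widely spread: let-7d-3p and let-7b-3p rose strongly, let-7e-3p and let-7f-1-3p rose about 2-fold, the shared sequence of let-7a-1-3p and let-7c-2-3p did not pass the test, and let-7f-2-3p and let-7i-3p nearly vanished. Of the 10 strands, 9 had enough reads to be tested with edgeR (quasi-likelihood test, Benjamini-Hochberg adjusted p under 0.05 over all 550 miRNAs tested). In WT, 4 of the 9 were higher in IP, against 31.5% of all miRNAs tested, and 2 were lower, against 37.5%. Both shares are near the background, so the count says nothing particular about passenger strands, and the values of the members carry the description. Their median log2 IP/input was 0.91, against -0.04 for all 550 miRNAs, -0.09 for 263 tested 3p arms and -0.36 for 175 tested lesser arms.

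let-7d-3p, the most abundant strand and the only member with the seed UAUACGA, was the most enriched. Its level was 261, 277 and 232 CPM in WT inputs A, B and C and 1825, 1674 and 1939.9 CPM in the WT IP libraries. All 3 IP libraries lay above all 3 inputs, and the log2 IP/input was 2.82 ± 0.24 (SE), a 7.07-fold rise (edgeR adjusted p = 1.57e-09). In KD3 the inputs held 227, 241 and 279.7 CPM and the IP libraries 1331, 1839.7 and 1905 CPM, again without overlap. In KD6 the inputs held 158, 244 and 229 CPM and the IP libraries 4590.1, 3042 and 2103 CPM. The log2 ratio was 2.76 ± 0.24 in KD3 and 3.90 ± 0.26 in KD6, with edgeR adjusted p of 2.17e-09 and 2.82e-11. Without the shallow KD6 input A it was 3.31 ± 0.27 in KD6. The number of distinct read sequences counted for let-7d-3p was 104.5 to 126.5 per WT input and 162.2 to 225.3 per WT IP library. It depends on the reads, 2724 to 3809 per WT input and 7388.2 to 12811.7 per WT IP library, and is no separate evidence.

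let-7b-3p differs from the let-7a-1-3p sequence at 3 positions outside the seed. It held 30.5, 33.5 and 28.6 CPM in WT inputs and 136, 139 and 141 CPM in WT IP libraries, which were all higher. The log2 ratio was 2.16 ± 0.26 in WT, 2.13 ± 0.26 in KD3 and 2.96 ± 0.29 in KD6, with edgeR adjusted p of 2.12e-07, 2.94e-07 and 1.15e-08, and 2.56 ± 0.30 in KD6 without input A. Its hairpin neighbour let-7c-2-3p, 621 nt upstream, held 72.2 ± 7.57 CPM before and 80.1 ± 23.5 CPM after the IP in WT. The ratio of let-7b-3p to let-7c-2-3p reads within a library, which no scaling can change, was 0.361 to 0.476 in WT inputs and 1.30 to 2.18 in WT IP libraries, and it was higher in every IP library than in every input of its condition in KD3 and KD6 also.

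let-7e-3p and let-7f-1-3p rose in all 3 conditions. let-7e-3p held 54.7, 49.5 and 45.3 CPM in WT inputs and 81.3, 109 and 112 CPM in WT IP libraries, and its log2 ratio was 1.02 ± 0.23 in WT, 1.23 ± 0.23 in KD3 and 1.93 ± 0.24 in KD6 (edgeR adjusted p = 0.000446, 6.68e-05 and 4.44e-07). let-7f-1-3p held 20.97, 21.3 and 22.6 CPM in WT inputs and 29.9, 45.0 and 46.0 CPM in WT IP libraries, all of them higher. Its log2 ratio was 0.91 ± 0.25 in WT, 1.15 ± 0.26 in KD3 and 2.004 ± 0.29 in KD6 (edgeR adjusted p = 0.00333, 0.000494 and 2.96e-06). Without KD6 input A the KD6 values were 1.38 ± 0.25 for let-7e-3p and 1.60 ± 0.29 for let-7f-1-3p.

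The shared sequence of let-7a-1-3p and let-7c-2-3p held 63.8, 73.1 and 79.7 CPM in WT inputs and 62.1, 107 and 71.5 CPM in WT IP libraries in the let-7a-1-3p row. These ranges overlapped, as they did in KD3, where the inputs held 82.1 to 85.6 CPM and the IP libraries 74.7 to 93.4 CPM. The log2 ratio was 0.15 ± 0.24 in WT and 0.05 ± 0.24 in KD3 (edgeR adjusted p = 0.577 and 0.877). The sign of these values turned with the scaling, from -0.18 to 0.56 in WT and from -0.53 to 0.50 in KD3. Set against the median of all miRNAs under the same scaling, the WT value was 0.19 to 0.20 above that median and the KD3 value 0.06 to 0.08 above it. In KD6 the IP libraries held 282, 210.1 and 134 CPM and the inputs 97.8, 100.4 and 78.2 CPM, without overlap. The KD6 log2 ratio was 1.19 ± 0.26 (edgeR adjusted p = 0.00033), 0.76 ± 0.27 without input A, and 0.05 with total mapped reads as library size, where it no longer passed the test.

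miR-98-3p was scarce, with 3.33, 4.44 and 1.90 CPM in WT inputs and 5.01, 5.59 and 7.68 CPM in WT IP libraries. The IP libraries were all higher, but the log2 ratio of 0.92 ± 0.45 did not pass the test (edgeR adjusted p = 0.071), though it did without WT input B (1.23, adjusted p = 0.0443) or KD3 IP B (0.93, adjusted p = 0.0499), and with upper-quartile scaling (1.32, adjusted p = 0.0135). In KD3 the ranges overlapped, at 3.33 to 4.23 CPM in inputs and 3.37 to 13.4 CPM in IP libraries. The KD3 log2 ratio was 1.08 ± 0.45 (edgeR adjusted p = 0.0401). Its call was lost when any of 6 libraries was left out, WT input A, KD3 inputs A, B and C, KD3 IP B and KD6 input A, with log2 values of 0.51 to 1.18. It was also lost with TMM scaling (0.85, edgeR adjusted p = 0.102), the sum of miRNA reads (0.92, 0.0835) and total mapped reads (0.49, 0.356). The same held with only the libraries compared (0.91, edgeR adjusted p = 0.0561) and with DESeq2 (1.08, DESeq2 adjusted p = 0.0708). In KD6 miR-98-3p held 0, 3.14 and 6.08 CPM in inputs and 20.0, 16.0 and 10.0 CPM in IP libraries. The KD6 log2 ratio was 1.75 ± 0.49 (edgeR adjusted p = 0.00308), or 1.23 ± 0.48 without KD6 input A.

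let-7f-2-3p fell in every condition. It held 22.6, 15.3 and 20.9 CPM in WT inputs and 1.04, 2.18 and 2.09 CPM in WT IP libraries, 10.5-fold lower, with a log2 ratio of -3.40 ± 0.35 (edgeR adjusted p = 2.24e-08). In KD3 the inputs held 15.9 to 18.7 CPM and the IP libraries 2.34 to 5.87 CPM, and in KD6 the inputs held 14.8 to 25.1 CPM and the IP libraries 2.10 to 4.25 CPM. No IP library of let-7f-2-3p reached any input of its condition. The log2 ratio was -2.02 ± 0.33 in KD3 and -2.85 ± 0.36 in KD6 (edgeR adjusted p = 1.43e-05 and 4.39e-07), and -3.37 ± 0.35 in KD6 without input A. Over 3 libraries, 710 rounded counts in WT input faced 30 in WT IP. Its reads held 11.6 to 15.7 distinct sequences per WT input and 1.6 to 6.0 per WT IP library. That number depends on the reads, 210.5 to 264.1 per WT input and 4.2 to 13.8 per WT IP library, and is no separate evidence.

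The contrast with let-7a-1-3p, which differs over the shared 21 bases by A8G alone, is a within-library comparison. The ratio of let-7f-2-3p to let-7a-1-3p reads was 0.209 to 0.354 in WT inputs and 0.0167 to 0.0292 in WT IP libraries. It was 0.187 to 0.228 against 0.0251 to 0.0628 in KD3 and 0.152 to 0.321 against 0.01001 to 0.0215 in KD6, and the input and IP ranges never overlapped. These read ratios are a description and were not tested. How the pipeline assigned reads with a mismatch between strands this close is not given in the sources used here.

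let-7i-3p, whose hairpin makes the most abundant let-7 guide in these libraries, was almost absent after IP. It held 22.8, 27.3 and 29.2 CPM in WT inputs and 0.247, 1.12 and 0 CPM in WT IP libraries. In KD3 the inputs held 24.6 to 26.0 CPM and the IP libraries 0, 0 and 0.159 CPM, and in KD6 the inputs held 22.2 to 37.5 CPM and the IP libraries 2.02, 2.74 and 0 CPM. The IP libraries lay below all inputs in each condition. Over the 3 libraries of a group, 981 rounded counts in WT input faced 7 in WT IP, a 60.9-fold lower level (exact 95% counting interval 29.5 to 152). The corresponding counts were 885 and 1 in KD3, a ratio of 293 with an interval of 52.5 to 11595, and 621 and 11 in KD6, a ratio of 29.1 with an interval of 16.1 to 58.5, or 29.2 (16.2 to 58.8) without KD6 input A. Intervals and floors here cover counting error only, because PCR copies of a molecule are counted as reads. The edgeR adjusted p was 5.15e-08 in WT, 5.22e-08 in KD3 and 1.06e-06 in KD6, with log2 values of -5.85 ± 0.63, -7.94 ± 0.86 and -4.56 ± 0.62 that depend on the prior count where counts are this low. Single libraries also moved them, since 6 of the 7 WT IP counts were in IP B. The WT value was -7.88 without IP B and -5.14 without IP C, and the KD3 value -10.5 without IP C, which held its 1 count. The KD6 value was -5.33 without IP B, -3.61 without IP C and -5.09 ± 0.61 without input A. The call held in each of these fits.

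let-7g-3p had too few reads for the test. Its estimated counts were 4, 18.2 and 12 in WT inputs, 21.5, 11 and 8 in KD3 inputs and 0, 5 and 6.2 in KD6 inputs, and 0 in all 9 IP libraries. Taking 3 counts over the 3 IP libraries as the most that a count of 0 allows, let-7g-3p was at least 4.93-fold lower in IP in WT, 4.53-fold in KD3 and 1.89-fold in KD6 (1.91-fold without KD6 input A). With the counting error of the 34, 41 and 11 input counts included, the lower limits of the exact 95% interval were 3.79, 3.52 and 1.29. With no filter on low counts, let-7g-3p was called lower in WT by edgeR (adjusted p = 0.00337), as it was by DESeq2 (adjusted p = 0.0167). Its sequence stands apart from the others, with 17 substitutions against let-7a-1-3p and A in place of the initial C (C1A).

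**Figure D1:**
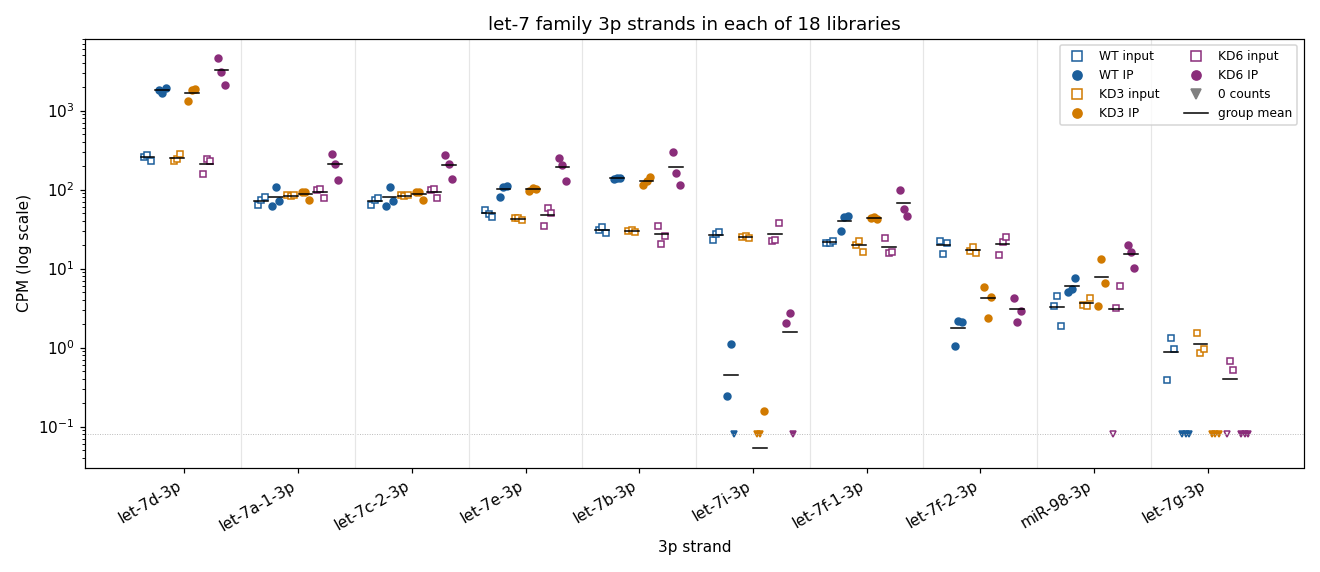
CPM (log axis) of the 10 3p strands in each of 18 libraries; open squares are inputs, filled circles IP libraries, colours the 3 conditions, black lines group means (n = 3), and triangles on the dotted line values of 0. let-7d-3p stands highest, between 1674 and 1939.9 CPM in WT IP, while let-7f-2-3p and let-7i-3p drop in IP in every condition. let-7g-3p, too scarce for the test, is at 0 in all IP libraries and also in KD6 input A.

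In KD3, 5 of the 9 tested strands were higher in IP, against 34.4% of all miRNAs tested, and 2 were lower, against 36.2%. In KD6, 7 of 9 were higher, against 35.8%, and 2 were lower, against 35.5%, with 2 of the 7 being the shared let-7a-1-3p and let-7c-2-3p sequence. The same 4 strands, let-7d-3p, let-7b-3p, let-7e-3p and let-7f-1-3p, were higher in all 3 conditions, and let-7f-2-3p and let-7i-3p were lower in all 3. The median log2 ratio of the 9 strands was 1.08 in KD3 and 1.75 in KD6, against -0.03 and -0.00 for all miRNAs tested. Without KD6 input A the KD6 median was 1.23 for the 9 strands and -0.34 for all miRNAs tested. Apart from the shared sequence, each tested strand kept its sign in all 3 conditions under all 5 scalings tried with edgeR.

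Position on a common transcript did not go with a common ratio. The chr13 neighbours let-7a-1-3p, let-7f-1-3p and let-7d-3p had WT log2 ratios of 0.15, 0.91 and 2.82. The ratio of let-7d-3p to let-7a-1-3p reads was 2.90 to 4.08 in WT inputs and 15.6 to 29.4 in WT IP libraries, and that of let-7f-1-3p to let-7a-1-3p rose from 0.283 to 0.329 in inputs to 0.419 to 0.643 in IP. On chrX, let-7f-2-3p fell to a log2 ratio of -3.40 while its neighbour miR-98-3p stood at 0.92. Their read ratio was 3.45 to 11.004 in WT inputs and 0.207 to 0.390 in WT IP libraries. Each of these 3 within-library ratios was free of overlap between WT inputs and WT IP libraries.

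The number of uridines, the base from which Ψ is made, did not order the strands. let-7a-1-3p, let-7f-2-3p and miR-98-3p each have 9 uridines and had WT log2 ratios of 0.15, -3.40 and 0.92. let-7d-3p and let-7f-1-3p have 8 and stood at 2.82 and 0.91, let-7e-3p has 7 and stood at 1.02, and let-7b-3p and let-7i-3p have 6 and stood at 2.16 and -5.85. The 5 members with the seed UAUACAA ranged from 0.15 to 2.16. The let-7 3p strands outside the list, let-7a-2-3p with the seed UGUACAG and let-7c-1-3p with UGUACAA, were also scarce. let-7a-2-3p went from 3.40 ± 0.426 CPM to 1.51 ± 0.518 CPM in WT (log2 ratio -1.26 ± 0.53, edgeR adjusted p = 0.0378), and let-7c-1-3p held 6.24 ± 0.182 and 6.61 ± 4.06 CPM (0.04 ± 0.43, adjusted p = 0.936).

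The guides of the same hairpins behaved alike among themselves. All 9 let-7 5p strands, counting miR-98-5p, were higher in IP in each condition, and their WT log2 ratios had a median of 1.63, with let-7i-5p the lowest (0.59) and let-7e-5p the highest (2.73). In KD6 their median was 2.55, or 1.91 without input A, where all 9 still passed. Before the IP in WT, let-7i-5p held 85481 ± 8785 CPM beside 26.4 for let-7i-3p, and let-7d-5p held 1697 ± 70.5 CPM beside 256 for let-7d-3p. let-7d-3p stood above its guide in log2 ratio (2.82 against 1.54), let-7b-3p near it (2.16 against 1.96), and the other tested strands below theirs.

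**Figure D2:**
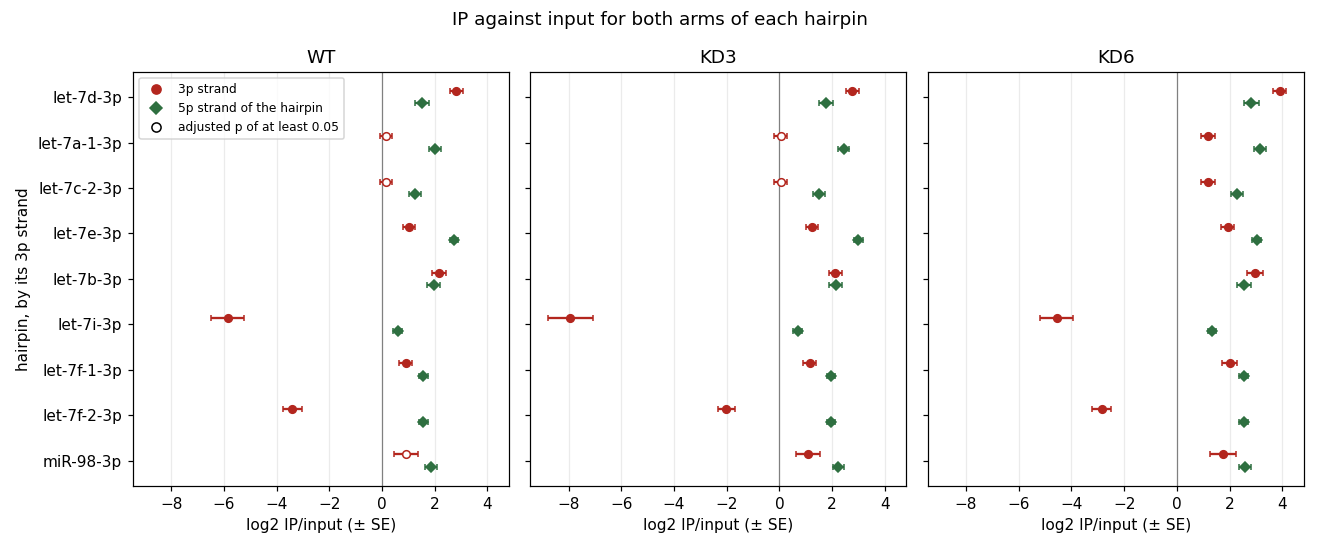
log2 IP/input with SE (edgeR, horizontal axis) of each tested 3p strand (red circles) and of the 5p strand of its hairpin (green diamonds), in WT, KD3 and KD6; open symbols have an adjusted p of at least 0.05. The 5p strands all lie above 0, while the 3p strands run from -5.85 for let-7i-3p to 2.82 for let-7d-3p in WT.

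The arm ratio, the log2 of 3p over 5p reads of the same hairpin, removes the scaling of a library, and limma was used to test it over all 154 hairpins with enough reads in both arms. For let-7a, let-7c and let-7f, guide reads that fit several hairpins were divided among them before deposit, so those denominators are estimates. In WT, 1 of 9 tested strands had a higher arm ratio in IP, against 28.6% of all hairpins, and 5 had a lower, against 32.5%. In KD3, 1 was higher, against 31.2%, and 7 were lower, against 32.5%. In KD6, 1 was higher, against 27.3%, and 6 were lower, against 32.5%. The median change of the 9 was -1.12 in WT, -1.46 in KD3 and -1.05 in KD6, against -0.05, -0.04 and -0.16 over all hairpins.

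let-7d-3p was the strand with the higher arm ratio. Its share of the reads of its hairpin was 13.5%, 13.5% and 12.3% in WT inputs and 27.9%, 25.001% and 27.8% in WT IP libraries. The exact 95% binomial interval of the highest input (A) was 13.1% to 14.01%, below that of the lowest IP library (B), 24.6% to 25.5%. These intervals cover counting error only, not the spread between libraries. That of WT IP A, 27.4% to 28.5%, did not overlap that of WT IP B. The mean share was 13.1% ± 0.679 against 26.9% ± 1.66 in WT, 12.8% ± 1.49 against 22.5% ± 3.27 in KD3 and 12.4% ± 3.22 against 21.7% ± 0.324 in KD6 (SD, n = 3). The change of the log2 arm ratio was 1.29 ± 0.21 in WT, 0.98 ± 0.21 in KD3 and 0.99 ± 0.21 in KD6 (limma adjusted p = 4.57e-05, 0.000616 and 0.000485). Without KD6 input A the KD6 inputs held 9.64% and 11.7%, and the KD6 change was 1.22 ± 0.18. For let-7b-3p the share was 1.06% ± 0.0675 before and 1.24% ± 0.149 after the IP in WT, with overlapping ranges and a change of 0.21 ± 0.41 (limma adjusted p = 0.678).

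The falls were steepest for the strands that lost reads outright. The share of let-7f-2-3p went from 0.111% ± 0.0250 in WT input to 0.00332% ± 0.00110 in WT IP, and the log2 arm ratio changed by -5.01 ± 0.38 in WT, -4.02 ± 0.38 in KD3 and -5.29 ± 0.38 in KD6 (limma adjusted p = 6.54e-09, 1.19e-07 and 2.21e-09), the last being -5.48 ± 0.39 without KD6 input A. The share of let-7i-3p was 0.0314% ± 0.00697 in WT input, and in WT IP it was 0.000211%, 0.000832% and 0 of the hairpin's reads, with exact 95% binomial upper limits of 0.00118%, 0.00181% and 0.000413%. Its fitted change of -6.94 ± 0.97 in WT (limma adjusted p = 1.18e-05) became -4.93 ± 0.49 with a pseudocount of 5 in place of 0.5. It was -7.86 without WT IP B and -5.85 without WT IP C, so its size depends on the pseudocount and on single libraries, while the direction was the same in each of these fits.

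In WT, let-7e-3p, let-7a-1-3p and let-7c-2-3p also fell behind their guides, and let-7f-1-3p and miR-98-3p did not pass the test. let-7e-3p went from 0.829% ± 0.0859 to 0.256% ± 0.0456 of its hairpin's reads in WT, a change of -1.71 ± 0.24 (limma adjusted p = 1.15e-05), and let-7a-1-3p from 2.05% ± 0.289 to 0.578% ± 0.193, a change of -1.89 ± 0.30 (limma adjusted p = 4.26e-05). let-7c-2-3p changed by -1.12 ± 0.30 in WT (limma adjusted p = 0.00387), with the same 3p reads set against a different guide. let-7f-1-3p changed by -0.69 ± 0.29 in WT (limma adjusted p = 0.0508) and passed in KD3 and KD6, at -0.79 ± 0.29 and -0.78 ± 0.29 (0.0265 and 0.0307). The call of let-7f-1-3p hung on single libraries and on settings. It was gained in WT without WT IP B, KD6 input A or B, or KD6 IP A or C (-0.82 to -0.69). It was lost in KD3 without KD3 input B, KD3 IP A or KD3 IP C (-0.80 to -0.69), and in KD6 without KD6 input A or C or KD6 IP B or C (-0.79 to -0.57). Among settings, it was gained in WT with guide reads summed per mature miRNA (limma adjusted p = 0.0496), without the limma trend (0.0413) or with only the libraries compared (0.0236). It was lost in KD3 with a pseudocount of 5 (limma adjusted p = 0.0686) and in KD6 with only the libraries compared (0.250). miR-98-3p passed in KD3 alone, at -1.36 ± 0.52 (limma adjusted p = 0.0295), against -0.87 ± 0.52 in WT and -0.63 ± 0.52 in KD6. It lost that call without KD3 input B or C or KD3 IP A or C (-1.42 to -0.89), and with only the libraries compared (limma adjusted p = 0.0512). With a pseudocount of 5 the KD3 call was lost (limma adjusted p = 0.122) and a KD6 call was gained (-1.69, adjusted p = 0.0377). Without KD6 input A, the KD6 call of let-7f-1-3p was lost (-0.57 ± 0.28, adjusted p = 0.083) and let-7b-3p passed the test with a higher arm ratio (0.69 ± 0.27, adjusted p = 0.0387).

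**Figure D3:**
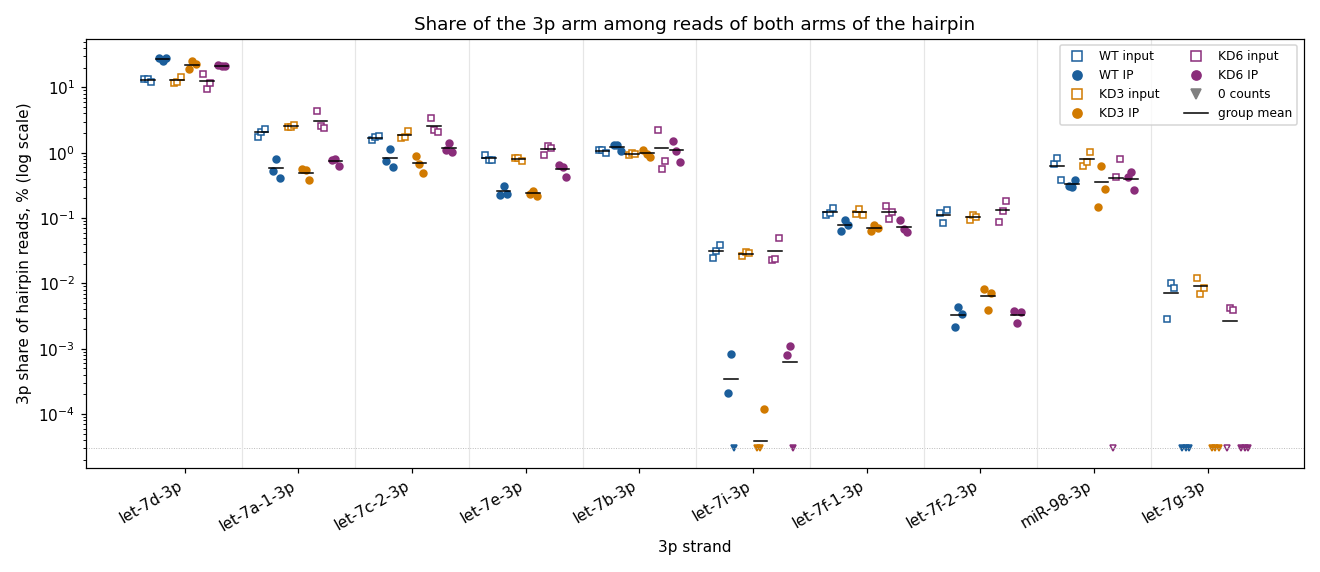
Share of the 3p arm among reads of both arms of its hairpin, in % on a log axis, for each of 18 libraries; open squares are inputs, filled circles IP libraries, black lines group means (n = 3), and triangles values of 0. let-7d-3p moves from a mean of 13.1% to 26.9% in WT, let-7b-3p overlaps between input and IP, and let-7i-3p and let-7f-2-3p fall furthest.

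Whether the enrichment differed between conditions was asked with the difference of the log2 IP/input ratios. WT carries no day in the labels, and no mock knockdown is named. The knockdown therefore cannot be told apart from time in culture or from the procedure. In KD3 against WT, 0 of 9 strands passed, as did 0% of all 550 miRNAs tested with edgeR (16 had an unadjusted p under 0.05, and DESeq2 called 0), and the strands' differences ran from -2.09 to 1.38. In KD6 against WT, 0 of 9 passed, again with 0% of all miRNAs (119 at an unadjusted p under 0.05, and 27 called by DESeq2). In KD6 against KD3, 0 of 9 passed, against 0.182% of all miRNAs. The KD6 differences against WT ran from 0.55 for let-7f-2-3p to 1.29 for let-7i-3p, with a median of 1.03 against 0.25 for all miRNAs. Their sign depended on the scaling. With total mapped reads as library size let-7b-3p stood at -0.11, let-7f-2-3p at -0.27 and miR-98-3p at -0.07, let-7d-3p at 0.25 and the median of the 9 at 0.22, while the median of all miRNAs was -0.56. With the sum of miRNA reads let-7f-2-3p alone was below 0, at -0.11, and the medians were 0.36 and -0.41. Each of the 9 lay above the median of all miRNAs under all 5 scalings, counting the shared let-7a-1-3p and let-7c-2-3p sequence under both names. A scaling moves a strand and that median almost alike, so the agreement of the scalings is no separate evidence. The guides differed in the same direction under median-ratio scaling. The let-7 5p strands ran from 0.30 to 1.30 in KD6 against WT, with a median of 0.75. For let-7d-3p the difference was 1.08 ± 0.32 against WT (edgeR adjusted p = 0.105) and 1.14 ± 0.32 against KD3 (adjusted p = 0.116). The KD6 comparisons share their libraries and are not independent of each other.

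The calls of these KD6 differences hung on KD6 IP C, whose level was the lowest of the 3 KD6 IP libraries for let-7d-3p, let-7a-1-3p, let-7e-3p, let-7b-3p, let-7f-1-3p and miR-98-3p. Without it, 6 strands passed against WT, let-7a-1-3p and let-7c-2-3p (1 sequence), let-7b-3p, let-7d-3p, let-7e-3p and let-7f-1-3p, with differences of 1.05 to 1.30. Against KD3, 6 strands also passed without it, with let-7i-3p in place of let-7f-1-3p. Across all miRNAs the calls then numbered 57 and 63, against 0 and 1 with every library. DESeq2 with all libraries called let-7d-3p against WT, at 1.08 ± 0.34 (DESeq2 adjusted p = 0.0357), and let-7d-3p, let-7a-1-3p and let-7c-2-3p against KD3. Among the 1212 miRNAs with a DESeq2 p-value, 27 were called against WT and 20 against KD3. Without KD6 input A, no strand passed, while 14 of 596 miRNAs tested passed against WT and 21 against KD3. In that fit the difference of let-7d-3p was 0.77 ± 0.32 against WT. The 9 differences ran from 0.31 to 1.04 against WT and from -1.02 to 3.16 against KD3. In the arm ratio, which compares each strand with its guide, the changes of the IP effect gave 0 of 9 strands in KD3 against WT, KD6 against WT and KD6 against KD3, with 0% of hairpins each time by limma (3, 16 and 22 hairpins at an unadjusted p under 0.05).

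**Figure D4:**
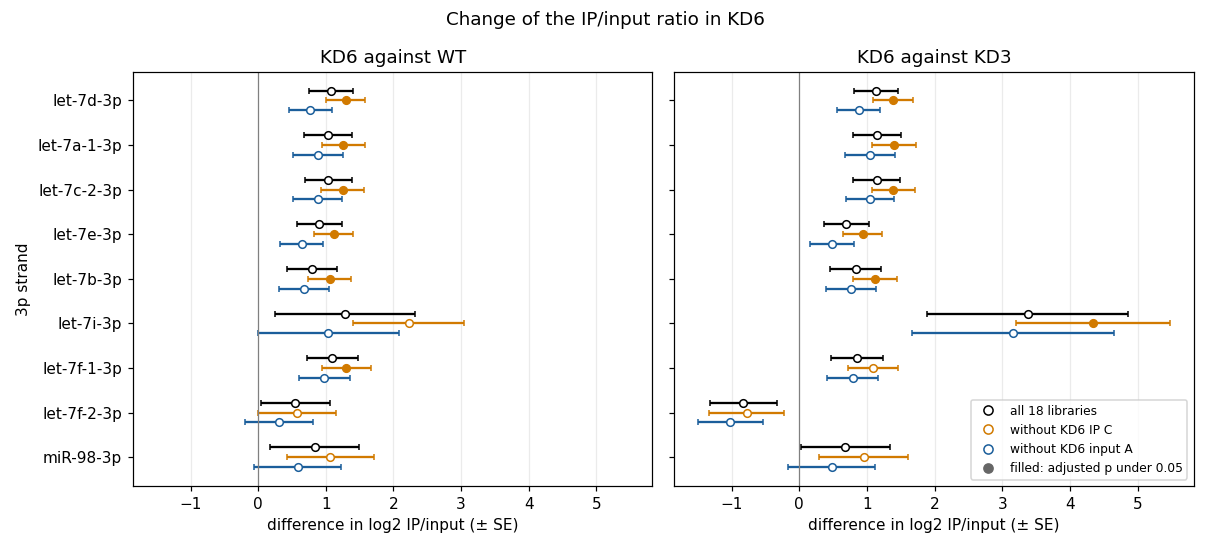
Difference in log2 IP/input (± SE, edgeR) of each tested 3p strand in KD6 against WT and in KD6 against KD3, with all 18 libraries (black), without KD6 IP C (orange) and without KD6 input A (blue); filled symbols have an adjusted p under 0.05. Filled symbols appear only without KD6 IP C, for 6 strands in each panel.

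The passenger strands in input RNA did not pass a test between conditions. In KD3 against WT input, 0 of 9 passed, with 0% of all miRNAs by edgeR (44 at an unadjusted p under 0.05, and 10 called by DESeq2), and the strands' log2 differences were -0.21 to 0.22. In KD6 against WT input, 0 of 9 passed, against 3.09% of all miRNAs, and the differences were -0.37 for let-7f-1-3p to 0.47 for miR-98-3p. In KD6 against KD3 input, 0 of 9 passed, against 4% of all miRNAs, with differences of -0.28 to 0.40. Without KD6 input A, 0 of 9 passed in either KD6 comparison, while 31 of 596 miRNAs tested passed against WT and 50 against KD3. The strands' differences were then -0.39 to 0.58 against WT and -0.34 to 0.46 against KD3. let-7d-3p stood at 256 ± 23.0, 249 ± 27.2 and 211 ± 46.1 CPM in WT, KD3 and KD6 input, and let-7i-3p at 26.4 ± 3.28, 25.1 ± 0.715 and 27.6 ± 8.58 CPM. The arm ratio of inputs gave 0 of 9 strands and 0% of hairpins in each of the 3 comparisons by limma (2 hairpins in KD3 against WT, 10 in KD6 against WT and 15 in KD6 against KD3 at an unadjusted p under 0.05).

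By a fixed rule, the miRNAs outside the let-7 family with the pattern most like let-7d-3p and let-7i-3p were named by their distance over the 3 log2 IP/input ratios, among 137 miRNAs with a mean of at least 100 CPM. For let-7d-3p they were miR-485-5p (distance 0.28), miR-1198-5p (0.39) and miR-92a-3p (0.65). For let-7i-3p they were miR-381-3p (1.98), miR-101a-3p (2.65) and miR-455-5p (2.65), distances that depend on the prior count behind the fitted values of let-7i-3p.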

How the data were processed

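Gel-extracted small RNAs of NIH/3T3 cells were sequenced from input and Ψ-IP samples. The authors ran trimmed reads through the SeqImp pipeline in its default mouse miRNA configuration (mm10, with the Ensembl and miRBase releases named in the study's methods) and deposited estimated counts of mapped reads per mature miRNA and hairpin, not normalized, with reads that fit several loci divided among them. Splitting left 47.0% of values above 0 with decimals. A second deposited set of columns, also estimated counts, holds the number of distinct read sequences. Tests left out the row of total mapped reads, of which 5.47% to 38.2% lay outside miRNA rows. Depth was 241109 to 15099781 mapped reads, and the shallowest library limits the precision of KD6 input.

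Counts were summed per mature miRNA, rounded and tested in R 4.3.3 with edgeR 4.0.16 (median-ratio factors as in the study's own tests, filterByExpr, glmQLFit, glmQLFTest, 6 group means, no block), which left 550 miRNAs. A standard error is the unsigned log2 ratio over the root of its F statistic. Arm ratios, log2((3p + 0.5)/(5p + 0.5)) of unrounded counts, were tested with limma 3.58.1 (eBayes with a trend on the abundance of the lesser arm) over 154 of 855 hairpins whose arms both had a mean of at least 10 counts. Adjustment was by Benjamini-Hochberg, at 0.05, over all miRNAs or hairpins, and all tests were two-sided. Both procedures were also run on simulated data in which fewer miRNAs or hairpins differed than were called in IP against input here. No result here rests on that run. Intervals of shares are Clopper-Pearson. Positions come from GENCODE M21 (GRCm38) and sequences from RefSeq.

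The members, lists, naming rule and tests were chosen with earlier results of these data known. Every member is named, with the guides of its hairpins and the let-7 3p strands outside the list, and the nearest miRNAs by the distance rule given. Alternatives were other scalings, filters, DESeq2 1.42.0, the largest row per miRNA, replicate blocks, other pseudocounts and minimum counts, a threshold of 0.01 and leaving out each library. Same-letter libraries deviated together across 210 miRNAs, with every correlation above 0.1, for KD3 and WT input (0.24 to 0.591) and KD6 and KD3 input (0.217 to 0.32). KD6 and WT input fell just short of that cut (0.0949 to 0.41). In every other pair of groups the lowest correlation was negative. No label says what a letter shares.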

Additional observations from a re-analysis of the deposited data

How the results depend on the processing

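The calls of let-7d-3p, let-7b-3p, let-7e-3p, let-7f-1-3p, let-7f-2-3p and let-7i-3p in IP against input kept their direction and side of the threshold in every setting run, scalings and left-out libraries included. The shared let-7a-1-3p and let-7c-2-3p sequence, never called in WT or KD3, turned sign there. In WT its values were -0.15 and -0.15 with TMM, -0.00012 and -0.0029 with the sum of miRNA reads, and -0.18 and -0.18 with total mapped reads, in the order of the names. In KD3 they were -0.20 and -0.20 with TMM, -0.12 and -0.12 with the sum of miRNA reads, -0.53 and -0.54 with total mapped reads, and -0.12 and -0.12 with only the libraries compared. Leaving out a library gave -0.13 to 0.31 for both in WT, and -0.29 to 0.16 and -0.29 to 0.15 in KD3. In KD6 the sum of miRNA reads and total mapped reads ended its call (0.37 and 0.05 for let-7a-1-3p) and that of miR-98-3p (0.83 and 0.51). The arm ratio of let-7b-3p in KD6 was -0.18 with a pseudocount of 5, and leaving out a library gave -0.079 to 0.11 in KD3 and -0.36 to 0.69 in KD6. Strands called for a change of enrichment in KD6 against WT numbered 1 with DESeq2 and 0 to 6 with a library left out. In KD6 against KD3 they numbered 1 without a filter, 3 with DESeq2 and 0 to 6 with a library left out. Of 1212 miRNAs fitted without a filter, 14 were called in KD6 against KD3. With only the libraries compared, 4 strands rather than 7 changed arm ratio in KD6. The cause of these changes was not tested. A scaling moved the median log2 of all miRNAs from -0.04 to between -0.38 and 0.37 in WT and from -0.00 to between -1.16 and 0.50 in KD6. The share of calls that were higher went from 45.65% to 56.67% with the upper quartile in WT, from 48.71% to 33.24% with total mapped reads in KD3, and from 50.26% to 34.11% with the sum of miRNA reads and 27.32% with total mapped reads in KD6.

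With the replicate letter as a block the KD3 ratio of miR-98-3p was 1.03 (edgeR adjusted p = 0.0524), and with each IP paired to its input 0.94 (adjusted p = 0.119), so its call was lost. The IP and input pairing also ended the KD3 arm ratio call of miR-98-3p (-1.36, limma adjusted p = 0.0526). The blocks changed no other call of a strand. Depth limits let-7g-3p, miR-98-3p and all KD6 input values most.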
